A study of Mus musculus with 9 samples.

Results

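Expression of 41 genes of ribosome biogenesis and RNA polymerase I (Pol I) was followed in intestinal stem cells labelled as knockouts (KO) of KANSL1 and in controls. KANSL1 is the scaffold of the NSL histone acetyltransferase complex. The genes were chosen by name as Pol I subunits and factors or as nucleolar proteins that process, modify or assemble ribosomal RNA (rRNA). They were found in the count table through their Ensembl identifiers in GENCODE M21. All 41 were present among its 57180 identifiers, and all 41 passed the filter on low counts that left 13405 genes to test. The samples were 9 RNA-seq libraries of Lgr5-GFP+ cells sorted from the small intestine, 3 per group. The KO day 3 and KO day 4 groups (genotype label KANSL1-KO) came from mice with the Lgr5-EGFP-CreERT2 allele and floxed Kansl1 that received tamoxifen each day for 3 or 4 days. The control group (KANSL1-WT) came from mice given corn oil, and the sources used here do not settle whether these also carried the floxed alleles. In this allele the promoter of Lgr5, a gene of crypt base stem cells, drives both the green fluorescent protein used for the sort and the tamoxifen-dependent Cre. Tamoxifen, active Cre and loss of Kansl1 cannot be told apart against control, nor can the number of tamoxifen doses and the time since the first one between the KO groups. Library names begin with A in all controls and with B in all KO libraries, and a batch that followed these names cannot be told apart from the groups. The labels used here give no age. They also leave unsaid whether replicates came from different animals, so the p-values speak only of the variation among these samples, some or all of it possibly technical.

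Ribosomes are made in the nucleolus. Pol I transcribes the tandem rRNA genes into a long precursor, which small nucleolar ribonucleoproteins (snoRNPs) methylate and pseudouridylate. The small subunit processome and the assembly factors of the large subunit fold and cut it, and late factors finish the 40S and 60S subunits in the cytoplasm. Dividing cells of the intestinal crypt make many ribosomes, and the transcription factor MYC is known to raise many genes of this pathway.

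Kansl1 itself was at 2.81, 2.99 and 2.55 CPM (counts scaled to a common library size after TMM normalization) in KO day 3 libraries and at 2.93, 5.09 and 8.96 CPM in KO day 4 libraries, against 4.46, 11.4 and 9.83 CPM in controls. All KO day 3 libraries lay below the controls, and replicates 2 and 3 labelled KO day 4 lay within their range. The log2 fold change was -1.62 at KO day 3 (SE 0.45, edgeR adjusted p = 0.12) and -0.63 at KO day 4 (edgeR adjusted p = 0.345). Reads from outside the floxed exons are counted with the gene, so it checks the labels only in part. Transcripts of the mitochondrial genome took between 19.0 and 32.4% of counts in KO day 3 libraries and between 66.9 and 72.1% in KO day 4 libraries, against 16.4 to 25.8% in controls. Totals were 8400458 to 21484679 counts per library. All 15 stem cell markers and all 6 epithelial markers of the lists were detected in every group. The stem cell list summed to between 13086 and 18855 CPM of nuclear-gene counts in KO day 3 libraries and between 2986 and 7926 in KO day 4 libraries, against 19428 to 23347 in controls. Olfm4 (-1.45, edgeR adjusted p = 0.0102) and Ascl2 (-1.52, edgeR adjusted p = 0.00393) fell at KO day 4, and Lgr5 was at -0.71 (edgeR adjusted p = 0.0921). The 14 Paneth cell markers summed to 37447 to 56955 and 124960 to 172150 CPM of nuclear-gene counts at KO day 3 and KO day 4, against 23272 to 57754 in controls. The 12 mast cell markers summed to 22.8 to 197 and 466 to 1294, against 0.100 to 0.644 in controls, where Mcpt1, Mcpt2, Mcpt4, Tpsab1, Fcer1a and Ms4a2 were at 0. KO day 3 replicate 1 and KO day 4 replicate 3 stood apart. Across genes (log2 CPM), the correlation of KO day 3 replicate 1 with its fellow replicates was 0.950 and 0.946, and that of KO day 4 replicate 3 was 0.913 and 0.919. Controls correlated with each other at 0.978 to 0.982.

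The 41 genes together held a larger part of TMM-scaled expression in the KO libraries than in controls, except that KO day 4 replicate 3 lay within the controls' range. Their sum was 3579, 3416 and 3855 CPM in KO day 3 libraries and 3808, 4020 and 2919 CPM in KO day 4 libraries, against 2981, 2777 and 2735 CPM in controls. Ncl and Npm1 weighed most in this sum, with means of 538 and 478 CPM in controls. Their means were 756 and 548 CPM at KO day 3 and 861 and 581 CPM at KO day 4. The order of the groups depended on the scale. As a share of the counts of nuclear genes they took 0.617, 0.617 and 0.730% at KO day 3 and 0.579, 0.605 and 0.418% at KO day 4, against 0.578, 0.601 and 0.609% in controls. On that scale the KO day 3 libraries still lay above the controls, while KO day 4 replicates 1 and 2 lay within the controls' range and replicate 3 lay below it. As a share of all counts, mitochondrial ones included, they took 0.500, 0.417 and 0.506% at KO day 3 and 0.192, 0.186 and 0.117% at KO day 4, against 0.429, 0.502 and 0.501% in controls. On that scale all KO day 4 libraries lay below the controls and the KO day 3 libraries overlapped them. In bulk libraries such as these, fewer cells of a type and less RNA per cell cannot be told apart.

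**Figure D1:**
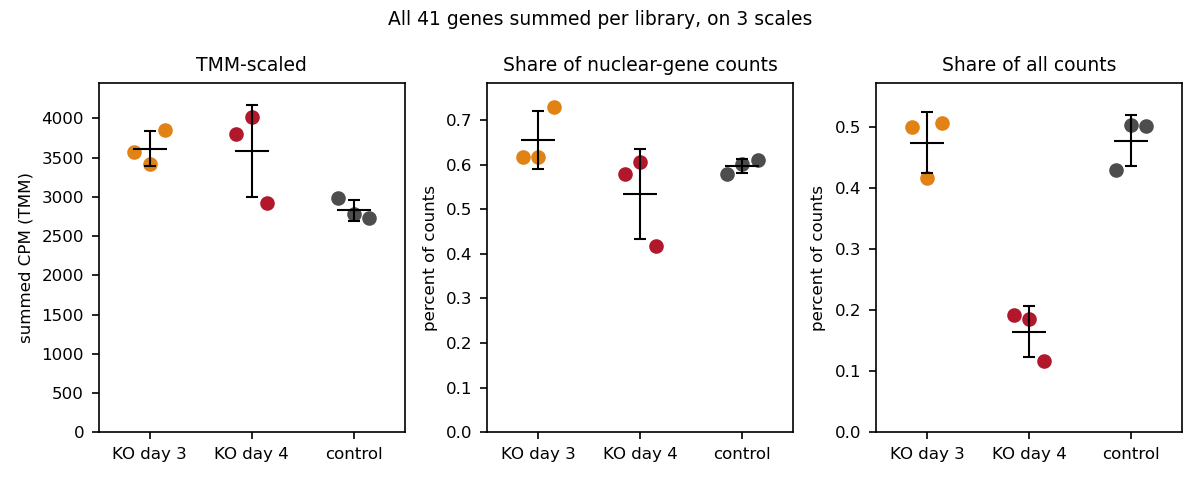
Summed level of the 41 genes in each library (points, replicates 1 to 3 from left) with the mean and SD of each group of 3, for KO day 3, KO day 4 and control. Left, summed CPM of TMM-scaled library size; middle, percent of nuclear-gene counts; right, percent of all counts. KO day 3 lies above control in the left and middle panels and KO day 4 lies far below it in the right panel, where the mitochondrial share enters the total.

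Fold changes are therefore read against the median of all 13405 genes, which was -0.02 at KO day 3 and -0.06 at KO day 4 with TMM scaling but -0.39 and -1.95 with library size alone. The median log2 fold change of the 41 genes was 0.34 at KO day 3 and 0.23 at KO day 4 against control. This stood 0.36 and 0.29 above the median of all genes. With library size alone the 41 genes' own medians were -0.03 and -1.64, which stood 0.36 and 0.30 above it. A change of scale shifts all genes by nearly the same amount, so this difference could hardly change and is no second support. Values above 0 were found for 37 of the 41 genes at KO day 3 and 32 at KO day 4 with TMM scaling, for 18 and 0 with library size alone, and for 26 and 9 when the counts of nuclear genes alone set the scale. Over all genes tested, 48.6% and 46.9% had values above 0 with TMM. Both KO times share the same 3 controls, so the direction at one time is not independent of that at the other.

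Single genes passed the test rarely. At KO day 3 no member was called by edgeR's quasi-likelihood test at an adjusted p under 0.05, where 0.440% of all genes were called. Unadjusted p was under 0.05 for 10 of the 41 genes, all of them higher, where 7.55% of all genes were higher and 8.29% lower at that level. DESeq2 called 3 members (Gnl3, Nhp2 and Wdr43), 7.32% of them against 6.53% of all genes. Limma voom called 6, which is 14.6% against 10.6% of all genes, and every one of these calls was higher. The 3 KO day 3 libraries did not overlap the 3 controls for 17 members, against 30.1% of all genes. In each of the 17 they lay above the controls, as they did for 12.1% of all genes. At KO day 4, 2 of the 41 genes rose and none fell, where 22.5% of all genes were called, 11.1% higher and 11.5% lower. The share of members called (4.88%) was below that of all genes in this fit, close to it with DESeq2 and above it with limma voom. DESeq2 called 12 (29.3% against 30.2% of all genes) and limma voom 16 (39.0% against 30.5%), all higher. Unadjusted p was under 0.05 for 13 members, all higher, where 17.2% of all genes were higher and 19.3% lower at that level. KO day 4 libraries lay above all controls for 14 members and below them for 2, Nop10 and Nob1, against 20.6% and 26.4% of all genes. The members were more precisely measured than most genes, with a median SE of 0.20 against 0.35 over all genes at KO day 4. Their log2 fold changes at KO day 4 ran from -0.48 (Nop10) to 0.80 (Utp4).

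**Figure D2:**
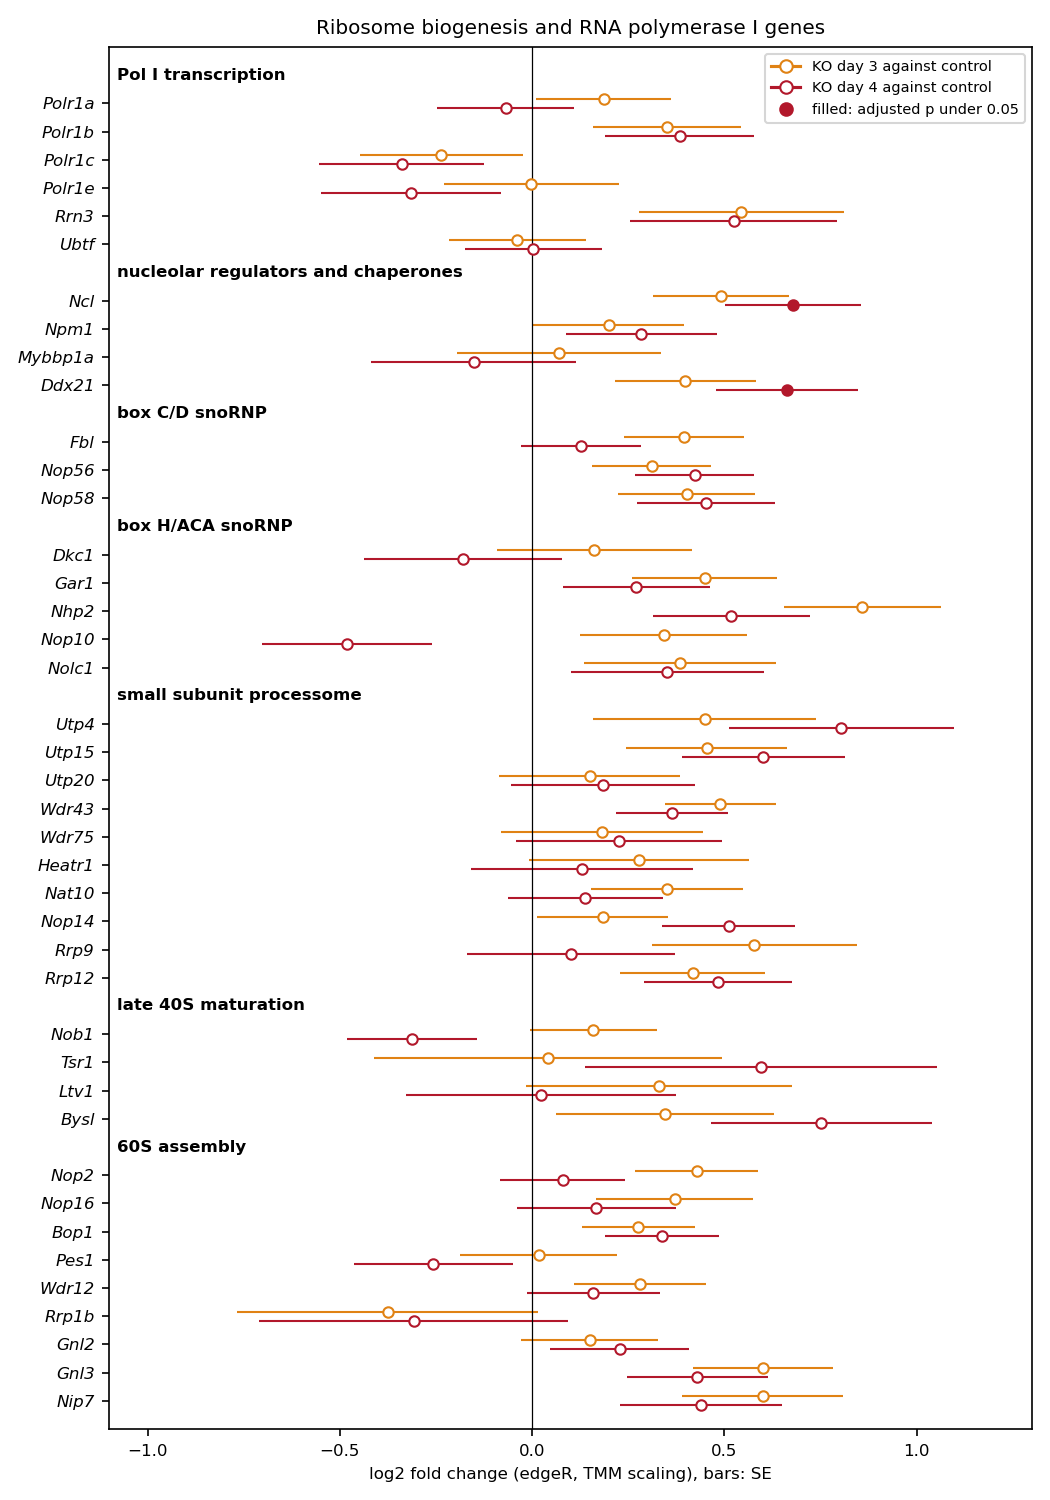
Log2 fold change against control (horizontal axis, edgeR, TMM scaling) of each of the 41 genes, grouped by role, at KO day 3 (orange) and KO day 4 (red). Bars are 1 SE and filled points passed an adjusted p of 0.05. Most points lie right of 0 at both times, all 10 genes of the small subunit processome among them, and Ncl and Ddx21 at KO day 4 are the filled ones.

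Of the 6 genes of Pol I transcription, none was called at either time, 3 had values above 0 and 3 below 0 at each, and their median was 0.09 at KO day 3 and -0.03 at KO day 4. Polr1a encodes the largest subunit, part of the catalytic centre. It was at 33.2, 38.2 and 38.5 CPM at KO day 3 and at 35.7, 29.7 and 26.4 CPM at KO day 4, against 29.2, 36.1 and 31.3 CPM in controls. Its groups overlapped throughout, with log2 fold changes of 0.19 (edgeR adjusted p = 0.671) and -0.07 (edgeR adjusted p = 0.815). Polr1b encodes its partner in the catalytic core. It was at 48.8, 59.8 and 78.7 CPM at KO day 3 and at 71.7, 65.7 and 54.2 CPM at KO day 4, against 46.2, 48.0 and 52.8 CPM in controls. The KO day 4 libraries lay above the controls and those of KO day 3 overlapped them, with log2 fold changes of 0.38 (SE 0.19, edgeR adjusted p = 0.176) and 0.35 (edgeR adjusted p = 0.409). Rrn3 encodes the initiation factor that brings Pol I to the rRNA gene promoter. It was at 31.8, 32.9 and 41.5 CPM at KO day 3 and at 44.0, 41.02 and 19.3 CPM at KO day 4, against 25.04, 22.6 and 25.3 CPM in controls. All KO day 3 libraries lay above the controls, and at KO day 4 replicates 1 and 2 lay above them and replicate 3 below. The log2 fold change of Rrn3 was 0.54 at KO day 3 (SE 0.27, edgeR adjusted p = 0.35) and 0.52 at KO day 4 (edgeR adjusted p = 0.183). Without KO day 4 replicate 3 Rrn3 was among the genes called higher at that time. Ubtf encodes the HMG-box protein that binds along the rRNA genes. It was at 53.2, 49.2 and 46.9 CPM at KO day 3 and at 47.1, 41.7 and 65.2 CPM at KO day 4, against 49.6, 50.9 and 52.7 CPM in controls. It overlapped the controls at both times (-0.04 and 0.00), and a 95% interval of the fit at KO day 4 ran from -0.39 to 0.40. Polr1c, which Pol I shares with Pol III, was at -0.24 and -0.34, and Polr1e, a Pol I-associated subunit, at -0.00 and -0.32. Neither passed the test.

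The 4 nucleolar regulators and chaperones held both of the called members. Ncl (ENSMUSG00000026234, chromosome 1, 86344719 to 86359400, minus strand, GRCm38) encodes nucleolin, an abundant RNA-binding protein of the nucleolus. It was at 756, 715 and 797 CPM at KO day 3 and at 858, 1026 and 700 CPM at KO day 4, against 611, 533 and 470 CPM in controls. Every KO library lay above every control. Ncl rose at KO day 4 by a log2 fold change of 0.68 (SE 0.18, 1.60-fold, edgeR adjusted p = 0.019) and was at 0.49 at KO day 3 (SE 0.18, edgeR adjusted p = 0.207). Its call at KO day 4 was lost without control replicate 2, control replicate 3 or KO day 4 replicate 2 (edgeR adjusted p of 0.0742, 0.0869 and 0.0815), where the value stayed between 0.53 and 0.67. Ddx21 (ENSMUSG00000020075, chromosome 10, 62580251 to 62602281, minus strand) encodes an RNA helicase that acts in rRNA transcription and processing. It was at 78.0, 98.7 and 121 CPM at KO day 3 and at 133, 127 and 97.8 CPM at KO day 4, against 70.7, 77.1 and 78.0 CPM in controls. The KO day 4 libraries lay above all controls, while KO day 3 replicate 1 lay within their range. Ddx21 rose at KO day 4 by 0.66 (SE 0.18, 1.58-fold, edgeR adjusted p = 0.026) and was at 0.40 at KO day 3 (edgeR adjusted p = 0.319). It was not called without any 1 of the 3 controls, without KO day 4 replicate 1 or 2, or with no filter on low counts (edgeR adjusted p between 0.0607 and 0.0948), where the value stayed between 0.57 and 0.68.

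Both calls depended on the scale. With library size alone Ncl and Ddx21 were at -1.19 and -1.22 at KO day 4, where the median of all genes was -1.95. With the counts of nuclear genes alone as the scale they were at 0.19 and 0.16 (edgeR adjusted p = 0.419 and 0.59), where that median was -0.55. Npm1 encodes nucleophosmin, a histone chaperone of the granular nucleolus that also helps export ribosomes. It was at 508, 561 and 576 CPM at KO day 3 and at 630, 697 and 416 CPM at KO day 4, against 541, 471 and 421 CPM in controls. It overlapped the controls at both times (0.20 and 0.28, edgeR adjusted p = 0.687 and 0.321), and as a gene with processed pseudogenes its counts are uncertain. Mybbp1a, a nucleolar protein that binds MYB and Pol I, was at 0.07 and -0.15.

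**Figure D3:**
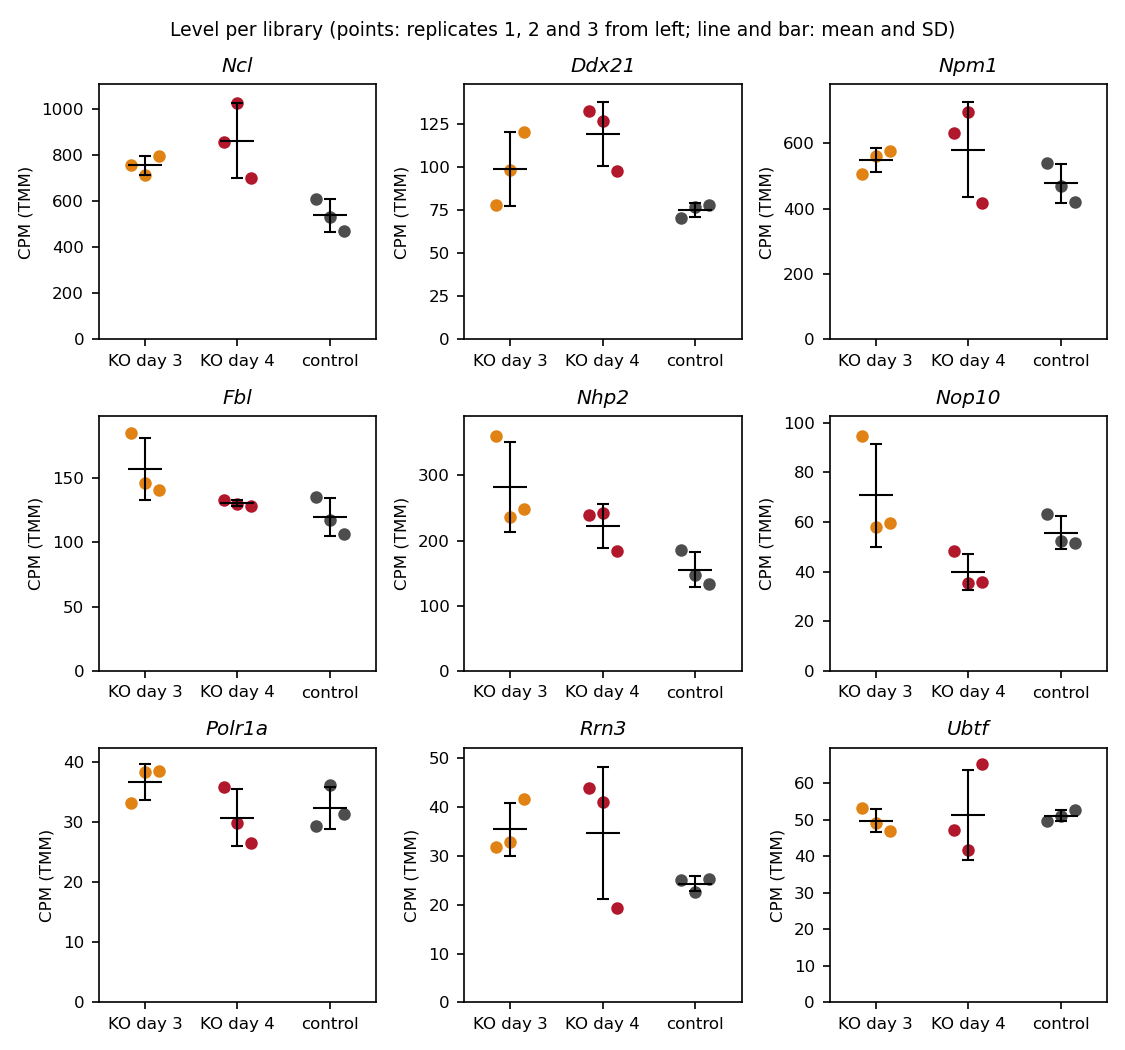
CPM of TMM-scaled library size in each library (points, replicates 1 to 3 from left; horizontal line and bar, mean and SD of 3) of 9 genes, for KO day 3, KO day 4 and control; each vertical axis starts at 0. The KO day 4 points of Ncl and Ddx21 lie above all of their control points, and those of Nop10 lie below. Replicate 3 of KO day 4 is the lowest of its group for Ncl, Ddx21, Npm1, Nhp2, Rrn3, Polr1a and, only just, Fbl.

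In the box C/D snoRNP, which methylates rRNA, all 3 members had values above 0 at both times and none was called. Fbl encodes fibrillarin, its methyltransferase. It was at 185, 146 and 140 CPM at KO day 3 and at 133, 130 and 128 CPM at KO day 4, against 135, 117 and 106 CPM in controls. The KO day 3 libraries lay above the controls and also above the KO day 4 libraries, which overlapped the controls. Log2 fold changes of Fbl were 0.39 at KO day 3 (SE 0.16, edgeR adjusted p = 0.244), 0.13 at KO day 4 (edgeR adjusted p = 0.593) and -0.27 for KO day 4 against KO day 3 (edgeR adjusted p = 0.278). The scaffold proteins Nop56 (0.31 and 0.42, edgeR adjusted p = 0.357 and 0.0722) and Nop58 (0.40 and 0.45, edgeR adjusted p = 0.301 and 0.0906) lay above all controls in every KO library, KO day 4 replicate 3 of Nop58 only just.

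The box H/ACA snoRNP, which converts uridine to pseudouridine, held the gene with the highest value at KO day 3 and the one that differed between the KO times. Nhp2 (ENSMUSG00000001056, chromosome 11, 51619735 to 51623714, plus strand) encodes a core protein of the particle. It was at 361, 236 and 249 CPM at KO day 3 and at 240, 243 and 184 CPM at KO day 4, against 186, 147 and 134 CPM in controls. All KO day 3 libraries lay above the controls, replicate 1 furthest, and KO day 4 replicate 3 lay within the controls' range. The log2 fold change was 0.86 at KO day 3 (SE 0.20, edgeR adjusted p = 0.0899) and 0.52 at KO day 4 (SE 0.20, edgeR adjusted p = 0.0903). Without KO day 3 replicate 1, the library that stood apart, the KO day 3 value was 0.64 (edgeR adjusted p = 0.144), and it was called by DESeq2 (0.88, adjusted p = 0.00499) and by limma voom (0.74, adjusted p = 0.0125). Nhp2 shares exonic bases with Rmnd5b on the other strand, and with the strand setting of the counting unknown their reads cannot be told apart.

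Nop10 (ENSMUSG00000027133, chromosome 2, 112261926 to 112263269, plus strand) encodes the smallest protein of the same core. It was at 94.6, 57.9 and 59.5 CPM at KO day 3 and at 48.2, 35.3 and 35.8 CPM at KO day 4, against 63.2, 52.4 and 51.4 CPM in controls. The KO day 4 libraries lay below all libraries of KO day 3 and of the controls. Nop10 was lower at KO day 4 than at KO day 3 by a log2 fold change of -0.82 (SE 0.22, 0.565-fold, edgeR adjusted p = 0.0347). It was the only member called between the KO times, where 12.5% of all genes were called, 6.52% higher and 6.03% lower. Against control Nop10 was at 0.34 at KO day 3 (edgeR adjusted p = 0.49) and -0.48 at KO day 4 (edgeR adjusted p = 0.138). The call between the KO times was lost without control replicate 2, KO day 3 replicate 1 or 2, or KO day 4 replicate 2 or 3 (edgeR adjusted p of 0.0511 to 0.100). Without KO day 3 replicate 1 the value was -0.57. The particle's other proteins in the list were Dkc1, the pseudouridine synthase, at 0.16 and -0.18, and Gar1 at 0.45 and 0.27. Nolc1, a chaperone of snoRNPs grouped here with them, was at 0.38 and 0.35. None of them was called. All 5 genes of this group had values below 0 at KO day 4 against KO day 3. They ran from -0.82 (Nop10) to -0.03 (Nolc1), where the median of all genes was -0.02.

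Promoter stretches of the 3 called genes and of Rrn3 are shown because Myc and the other factors that bind E-boxes (CACGTG) are known to act on this pathway, and because Rrn3 holds one. They are RefSeq sequences of GRCm38.p6, 5′ to 3′ on the strand of the gene, from 150 bases before to 30 bases after RefSeq's annotated start. That start lies 55 bases upstream of the GENCODE M21 gene start for Ncl, 17 for Ddx21 and 9 for Rrn3, and coincides with it for Nop10. Capitals mark CACGTG, the ETS-type motif ACTTCCG (or CGGAAGT on the other strand) and the GC box GGGCGG (or CCGCCC).
Ncl: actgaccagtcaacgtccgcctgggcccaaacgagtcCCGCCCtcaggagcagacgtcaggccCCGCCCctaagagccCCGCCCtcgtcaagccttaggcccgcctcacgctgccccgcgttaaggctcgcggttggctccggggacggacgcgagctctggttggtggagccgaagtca
Ddx21: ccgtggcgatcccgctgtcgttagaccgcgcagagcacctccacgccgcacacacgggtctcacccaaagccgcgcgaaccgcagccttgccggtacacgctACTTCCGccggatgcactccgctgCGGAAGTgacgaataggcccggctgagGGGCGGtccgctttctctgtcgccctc
Nop10: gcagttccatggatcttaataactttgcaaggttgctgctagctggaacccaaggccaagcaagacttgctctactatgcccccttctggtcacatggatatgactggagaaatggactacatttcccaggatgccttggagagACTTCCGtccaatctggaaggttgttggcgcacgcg
Rrn3: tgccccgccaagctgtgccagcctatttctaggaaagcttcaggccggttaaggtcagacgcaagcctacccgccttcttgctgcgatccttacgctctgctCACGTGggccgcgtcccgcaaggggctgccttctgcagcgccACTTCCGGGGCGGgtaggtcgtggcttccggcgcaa
The stretches lie at chr1:86359426-86359605 (Ncl, minus strand), chr10:62602269-62602448 (Ddx21, minus), chr2:112261776-112261955 (Nop10, plus) and chr16:13780549-13780728 (Rrn3, plus). Ncl has 3 GC boxes, Ddx21 has 2 ETS-type motifs and 1 GC box, and Nop10 has 1 ETS-type motif. In Rrn3 the E-box begins 48 bases before the start, and an ETS-type motif that begins 6 bases before it runs directly into a GC box. Another E-box, 215 bases before the start, lies outside the printed stretch. Windows from 250 bases before to 50 after the start were given for 36 of the 41 genes (not for Bop1, Fbl, Gnl2, Npm1 and Rrp12). CACGTG stood in 9 of the 36 (25%), against 11.9% of the 9485 genes tested that have a window. ACTTCCG stood in 14 (38.9% against 15.6%) and GGGCGG in 27 (75% against 69.1%). The 9 genes with CACGTG (Ltv1, Mybbp1a, Nop2, Pes1, Rrn3, Tsr1, Utp20, Utp4 and Wdr43) had a median log2 fold change of 0.33 at KO day 3 and 0.18 at KO day 4, close to the 0.35 and 0.23 of the 27 without it. None of Ncl, Ddx21 and Nop10 has the motif in its window.

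In the small subunit processome, the large particle that folds and cuts the precursor of the 40S subunit, all 10 members had values above 0 at both times, with medians of 0.38 at KO day 3 and 0.30 at KO day 4, and none was called. With library size alone all 10 were below 0 at KO day 4, as were all 41 members. Among the proteins of the UtpA subcomplex, which binds the precursor first, Wdr43 had values above every control in all KO libraries (0.49 at KO day 3, SE 0.14, edgeR adjusted p = 0.135; 0.36 at KO day 4, edgeR adjusted p = 0.0947). Utp15 did so as well, KO day 3 replicate 1 only just (0.45 and 0.60, edgeR adjusted p = 0.319 and 0.0627). Utp4 had the highest value of all members at KO day 4, 0.80 (SE 0.29, edgeR adjusted p = 0.0704), with 56.8, 61.5 and 37.8 CPM at KO day 4 against 28.1, 26.3 and 35.3 CPM in controls. Its KO day 4 libraries lay above the controls, replicate 3 only slightly so. Heatr1 and Wdr75, of the same subcomplex, were at 0.28 and 0.18 at KO day 3 and at 0.13 and 0.23 at KO day 4. Nop14, an assembly factor that scaffolds the particle, was at 32.8, 39.7 and 36.0 CPM at KO day 4 against 28.5, 23.1 and 24.7 CPM in controls. It was the only member whose KO day 4 libraries lay above both the controls and the KO day 3 libraries, with log2 fold changes of 0.51 against control (SE 0.17, edgeR adjusted p = 0.0545) and 0.33 against KO day 3 (edgeR adjusted p = 0.23). Rrp12, which acts in the export of both subunits, lay above all controls in every KO library (0.42 and 0.48, edgeR adjusted p = 0.312 and 0.0911). Nat10, the cytidine acetyltransferase of small subunit rRNA, was at 0.35 and 0.14, Utp20 at 0.15 and 0.18, and Rrp9, a protein of the U3 snoRNP, at 0.58 and 0.10.

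None of the 4 factors of late 40S maturation was called in any comparison. Nob1 encodes the endonuclease that makes the 3′ end of the small subunit rRNA. It was at 50.2, 39.7 and 45.5 CPM at KO day 3 and at 32.7, 27.8 and 37.2 CPM at KO day 4, against 39.4, 40.6 and 41.3 CPM in controls. The KO day 4 libraries lay below all others, with log2 fold changes of -0.31 against control (SE 0.17, edgeR adjusted p = 0.203) and -0.47 against KO day 3 (SE 0.17, edgeR adjusted p = 0.0873). Bysl, bystin, which binds the particle before its export, was at 33.6, 46.9 and 52.8 CPM at KO day 4 against 22.7, 24.4 and 31.9 CPM in controls. Here KO day 4 replicate 3 was the highest of its group, and the value was 0.75 (SE 0.29, edgeR adjusted p = 0.081). Bysl shares exonic bases with Ccnd3 on the other strand. Tsr1 encodes a GTPase-like factor of late precursor particles. It was at 10.4, 40.7 and 56.2 CPM at KO day 3 and at 69.4, 56.0 and 32.5 CPM at KO day 4, against 35.2, 34.7 and 34.9 CPM in controls. The controls were nearly equal while each KO group lay on both sides of them, KO day 3 replicate 1 far below, with log2 fold changes of 0.04 and 0.60 (SE 0.45 and 0.46, edgeR adjusted p = 0.98 and 0.373). Ltv1, an export adaptor of the 40S subunit, was at 0.33 and 0.02, and at KO day 4 replicate 3, at 10.1 CPM, lay below the other replicates, at 33.4 and 33.2 CPM.

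Of the 9 factors of 60S assembly, 8 had values above 0 at KO day 3 and 7 at KO day 4, with medians of 0.28 and 0.17 and no call. Gnl3 (ENSMUSG00000042354, chromosome 14, 31012433 to 31019152, minus strand) encodes nucleostemin, a nucleolar GTPase of stem and dividing cells. It was at 50.2, 42.1 and 48.9 CPM at KO day 3 and at 47.5, 45.2 and 32.5 CPM at KO day 4, against 29.5, 34.3 and 29.3 CPM in controls. All KO day 3 libraries lay above the controls, and KO day 4 replicate 3 lay among them. Gnl3 was at 0.60 at KO day 3 (SE 0.18, edgeR adjusted p = 0.142) and 0.43 at KO day 4 (SE 0.18, edgeR adjusted p = 0.114). Nip7, which joins both precursor particles, lay above all controls in all KO libraries, in KO day 3 replicate 2 only just (45.7 CPM against at most 45.1 in controls), with log2 fold changes of 0.60 and 0.44 (edgeR adjusted p = 0.195 and 0.156). Of the PeBoW complex, made of Pes1, Bop1 and Wdr12, no gene was called. Bop1 was at 0.28 and 0.34 and lay above the controls in all KO libraries, Wdr12 was at 0.28 and 0.16, and Pes1 was at 0.02 and -0.26. Nop2 encodes a methyltransferase of large subunit rRNA. It was at 66.1, 71.0 and 81.0 CPM at KO day 3 and at 59.0, 63.9 and 48.4 CPM at KO day 4, against 49.9, 52.8 and 59.5 CPM in controls. The KO day 3 libraries lay above both other groups, with log2 fold changes of 0.43 against control (SE 0.16, edgeR adjusted p = 0.227) and -0.35 for KO day 4 against KO day 3 (edgeR adjusted p = 0.177). Gnl2, a GTPase related to Gnl3, was at 0.15 and 0.23, Nop16 at 0.37 and 0.17, and Rrp1b, the weakest member by counts, at -0.38 and -0.31 with an SE of 0.39 at KO day 3.

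Between the KO times the 41 genes had a median log2 fold change of -0.10, with 18 values above 0 and 23 below, close to the median of all genes. KO day 4 libraries lay above all KO day 3 libraries for 1 member (Nop14) and below them for 4 (Nop10, Nob1, Fbl and Nop2), where 15.8% of all genes lay above and 17.0% below. Single libraries moved with these values. KO day 4 replicate 3 was the lowest of its group for 29 of the 41 genes (70.7%), against 42.3% of all genes tested, and KO day 3 replicate 3 was the highest of its group for 28 (68.3% against 32.7%), while KO day 3 replicate 2 was the highest for none. KO day 4 replicate 3 also had the lowest sum of the 8 proliferation markers, 733 CPM of nuclear-gene counts against 1081 and 1003 in the other KO day 4 libraries, and the lowest sum of stem cell markers, 2986 against 7926 and 6892. KO day 3 replicate 3 had the highest proliferation sum of its group, 1885 against 1225 and 1549. The part of these differences in the results was not tested. KO day 3 replicate 1 and KO day 4 replicate 3 were also left out together. Then 3 members (Ddx21, Nhp2 and Wdr43) were called higher at KO day 3 and 15 at KO day 4. Of all genes, 4.73% and 30.1% were called there. Between the KO times no member was called in that fit, against 10.2% of all genes. The proliferation list as a whole had no gene called at KO day 3 or KO day 4 against control, with medians of 0.42 and 0.05, and Mki67, a protein of cycling cells, was at 0.47 and 0.37 (edgeR adjusted p = 0.297 and 0.228).

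Replicates agreed more closely for these genes than for most, with no matching for expression level, which was higher in the members. The median coefficient of variation was 15.3% at KO day 3, 19.7% at KO day 4 and 9.16% in controls, against 25.4%, 31.1% and 14.8% over all genes. Among the members it ran from 2.35% (Nat10) to 65.1% (Tsr1) at KO day 3, from 1.94% (Fbl) to 52.5% (Ltv1) at KO day 4, and from 0.758% (Tsr1) to 20.4% (Wdr75) in controls. Levels compared per kilobase of exon spanned a wide range. Npm1 was the highest in controls at 235 ± 29.6 CPM per kb (SD, n = 3), followed by Nhp2 at 149 ± 26.2, Fbl at 99.9 ± 12.3, Ncl at 65.6 ± 8.60 and Nop10 at 50.2 ± 5.89. Utp20 was the lowest at 2.62 ± 0.365 CPM per kb. Neighbours in this order from Npm1 to Ncl lay further apart than their SDs. The order depends on the lengths used, the union of exons over basic transcripts, which was 8202 bases for Ncl and 2031 for Npm1. Without division by length Ncl was higher than Npm1 in controls, at a mean of 538 against 478 CPM. At KO day 3 Nhp2 and Npm1 stood level, at 271 ± 66.0 and 270.0 ± 17.8 CPM per kb. The median member was at 13.2 CPM per kb in controls, against 3.26 over 13219 tested genes with a length. By role, the share of the members' counts taken by Pol I genes was 6.50 to 7.11% in KO day 3 libraries and 5.99 to 7.20% in KO day 4 libraries, against 7.26 to 8.40% in controls. The share of the 4 nucleolar regulators was 39.6 to 43.9% in KO day 3 libraries and 43.6 to 48.9% in KO day 4 libraries, against 39.9 to 44.2% in controls.

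A feature that the choice of genes did not use is that 7 of the 41 (17.1%) carry snoRNA genes inside their own transcription units, 21 in all, against 279 of 21951 protein-coding genes (1.27%). These hosts are Ncl, Nop56, Nop58, Dkc1, Wdr43, Tsr1 and Gnl3, and their median log2 fold change was 0.40 at KO day 3 and 0.43 at KO day 4, against 0.34 and 0.18 for the other 34. The snoRNAs with a row in the table had 0 to 16 counts each over all 9 libraries, so their own levels could not be compared at this depth in libraries built from mRNA. Of the 41 genes, 19 share exonic bases with another annotated gene and 17 with one on the other strand, for which reads cannot be told apart without a known strand setting.

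The rest of the pathway, 143 other genes of Pol I, snoRNPs, both subunits and the nuclear exosome listed by function, gave a mixed picture at KO day 4. Of these 143 genes, 10 rose and 11 fell (14.7% called, against 22.5% of all genes), with a median of -0.04. At KO day 3 none was called by edgeR, where 0.440% of all genes were called, and the median was 0.09. Unadjusted edgeR p was under 0.05 for 30 of the 143, 20 higher and 10 lower. At that level 7.55% of all genes were higher and 8.29% lower. DESeq2 called 9 (6.29% against 6.53% of all genes) and limma voom 14 (9.79% against 10.6%). The 3 risers with the smallest adjusted p at KO day 4 all serve the 60S subunit. Nol12, an RNA-binding protein of rRNA processing, was at 61.2, 54.7 and 75.2 CPM at KO day 4 against 30.4, 23.2 and 19.8 CPM in controls (log2 fold change 1.38, SE 0.21, edgeR adjusted p = 0.00158). Ppan, the homologue of Drosophila Peter Pan, was at 53.1, 58.8 and 58.0 CPM against 31.0, 33.1 and 27.0 CPM (0.90, edgeR adjusted p = 0.00333). Eif6, which keeps 60S subunits from joining 40S early, was at 227, 291 and 281 CPM against 155, 128 and 148 CPM (0.89, edgeR adjusted p = 0.00426). For these 3 genes every KO day 4 library lay above every control, but with library size alone all 3 were below 0, at -0.50, -1.0 and -1.01.

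Of the genes that fell at KO day 4, the 3 with the smallest adjusted p lay below all controls in every KO day 4 library. Nsa2, a factor of 60S assembly, was at 54.5, 61.8 and 41.9 CPM at KO day 4 against 123, 99.5 and 94.7 CPM in controls (-1.0 on the log2 scale, edgeR adjusted p = 0.00497). Tsr2, which in yeast escorts a ribosomal protein of the 40S subunit, was at 8.79, 8.90 and 7.84 CPM against 19.0, 20.8 and 18.1 CPM (-1.18, edgeR adjusted p = 0.00592). C1d, a cofactor of the nuclear exosome, was at 12.1, 10.7 and 13.9 CPM against 24.7, 21.7 and 26.5 CPM (-1.0, edgeR adjusted p = 0.00911). By group, the other 54 genes of 60S assembly had 8 higher and 2 lower (14.8% and 3.70%). The other 41 of the small subunit processome had 1 higher and 3 lower (2.44% and 7.32%) with 31 values below 0. The 16 exosome genes had none higher and 2 lower (12.5%). Of all genes, 11.1% were called higher and 11.5% lower. Thus 10 of the 41 processome genes outside the list had values above 0 at KO day 4, where all 10 listed members did; this difference was not tested. Chosen after their values were seen, the remaining higher genes of 60S assembly were Mak16 (0.77), Gtpbp4 (0.66), Ccdc86 (0.63), Ddx24 (0.62) and Nol9 (0.55). The other called genes, likewise chosen, were Rrp7a (0.52), Imp4 (-0.88), Ddx52 (-0.91) and Fcf1 (-0.72) of the processome, Tsr3 (-1.0) of late 40S maturation, Gnl3l (-0.63) of the lower 60S genes, Naf1 (1.07), an assembly factor of H/ACA snoRNPs, and Exosc9 (-0.93). Of the 21 called genes, 12 share exonic bases with another annotated gene, among them Nsa2 (with Fam169a and Gfm2), Tsr2 (Fgd1), Ppan, Eif6, Fcf1 (Arel1), Tsr3 (Baiap3) and Exosc9 (Ccna2), and their reads are uncertain to that extent. Of 10 other Pol I genes, 2 fell. Znrd1, a small Pol I subunit, was at 5.86, 6.04 and 7.84 CPM at KO day 4 against 14.5, 12.1 and 13.4 CPM in controls (-1.03, edgeR adjusted p = 0.0131). It was as low at KO day 3 (6.31, 6.50 and 7.27 CPM; -0.99, edgeR adjusted p = 0.0899). The other, Taf1b, of the promoter selectivity factor, had 12, 5 and 11 counts at KO day 3 and 0, 7 and 1 at KO day 4, against 99, 122 and 110 in controls (-3.28 at KO day 4, edgeR adjusted p = 0.0301).

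**Figure D4:**
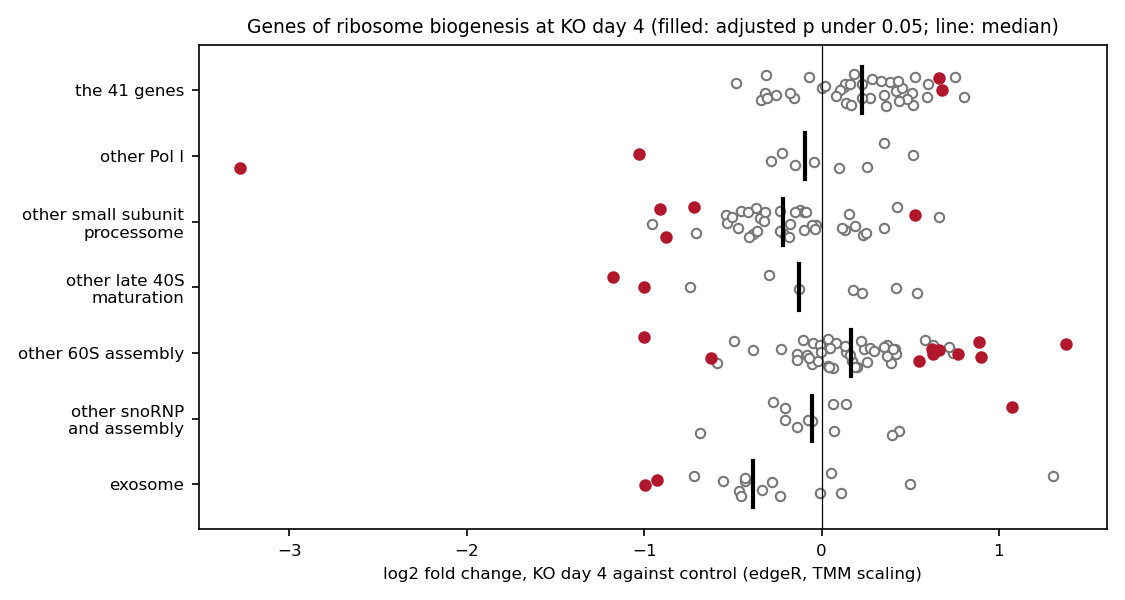
Log2 fold change at KO day 4 against control (horizontal axis, edgeR, TMM scaling) of the 41 genes and of 143 other genes of the pathway by group; each point is a gene, filled points passed an adjusted p of 0.05 and black lines are medians. The 41 genes (median 0.23) and the other genes of 60S assembly lie mostly right of 0, and the other small subunit processome and exosome genes mostly left of it.

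Between the KO times 3 of the 143 genes were called, against 12.5% of all genes. Nol12 (0.84, edgeR adjusted p = 0.0266) and Riok3, a kinase of 40S maturation (0.83, edgeR adjusted p = 0.0314), were higher at KO day 4 than at KO day 3. Pdcd11, the homologue of yeast Rrp5 (-0.73, edgeR adjusted p = 0.0363), was lower. Each of these calls was lost when single libraries were left out. Nol12 lost it without KO day 3 replicate 2 or 3 or KO day 4 replicate 3 (0.70 to 0.78). Riok3 lost it without control replicate 2 or 3, KO day 3 replicate 2 or 3 or KO day 4 replicate 1 or 2 (0.69 to 0.83). Pdcd11 lost it without any 1 library other than KO day 4 replicate 1 (-0.81 to -0.58). Myc is known to drive this pathway in many tissues. It was at 55.1, 38.3 and 40.7 CPM at KO day 3 and at 40.2, 32.1 and 36.3 CPM at KO day 4, against 29.5, 30.6 and 28.2 CPM in controls. All KO libraries lay above the controls, with log2 fold changes of 0.60 (SE 0.18, edgeR adjusted p = 0.142) and 0.30 (SE 0.18, edgeR adjusted p = 0.261) that did not pass the test. Its partner Max was at 0.47 and 0.61 (edgeR adjusted p = 0.312 and 0.0635), Mycn at -0.54 and -1.29 and Mnt at -0.08 and -0.11. Mxd4 encodes a partner of MAX that opposes MYC. It was at 4.95, 9.54 and 5.32 CPM at KO day 3 and at 22.0, 18.6 and 23.5 CPM at KO day 4, against 11.4, 12.5 and 9.39 CPM in controls. The KO day 4 libraries lay above the controls, and of the KO day 3 libraries replicates 1 and 3 lay below them and replicate 2 within their range. Mxd4 was higher at KO day 4 than in controls (0.95, edgeR adjusted p = 0.0333) and than at KO day 3 (1.69, edgeR adjusted p = 0.00631). The call against control was lost without any 1 of the 6 libraries compared (0.83 to 1.03). Of the 10 genes of the MYC and MAX network listed, 2 rose at KO day 4, against 11.1% of all genes, namely Mxd4 and its relative Mxd1 (1.94, edgeR adjusted p = 0.0132), the second named after its value was seen.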

How the data were processed

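Per the labels' protocols, total RNA of sorted cells was treated with DNase, mRNA was isolated and libraries were sequenced. The authors deposited a table of raw read counts per Ensembl gene, 1 column per library, with no normalization and no pooling, and the 6 empty columns at its end were ignored. The submitters' processing notes name HISAT2 2.0.4 and the build GRCm38. Which tool counted reads, with what strand setting and which annotation, is not given in the sources used here. Symbols, coordinates and exon lengths (union of basic transcripts) came from GENCODE M21, also GRCm38.

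Tests on the deposited counts used edgeR 4.0.16 (R 4.3.3) and its quasi-likelihood method: all 9 libraries in 1 fit of 3 groups, filterByExpr (minimum count 10, minimum total 15), TMM factors (0.40 to 0.50 at KO day 4 and 1.22 to 1.83 in the other groups) and Benjamini-Hochberg adjustment over 13405 genes, with a threshold of 0.05. SEs were derived from the log2 fold change and its F statistic, and intervals are at 95%. On simulated counts for KO day 4 against control (13485 genes), 49% of genes changed by 1 on the log2 scale and 100% of those changed by 2 were recovered. The simulation took control proportions at the real library totals and a dispersion of 0.05 for every gene. It left out the high mitochondrial share of KO day 4 and any library that stands apart. These rates therefore do not give the power of the real comparison. Libraries of a group differed beyond counting error, with chi-square values of 13.8 to 96.9 per degree of freedom, so none was merged.

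The members, the gene lists and the marker lists were chosen with earlier results of these data known. Values per library are given for called members, for Ncl, Npm1, Fbl, Polr1a, Polr1b, Rrn3 and Ubtf and for the 3 members highest per length; those of other members were added after their values were seen. Of the other pathway genes, up to 3 rising and 3 falling with the smallest adjusted p are named. Promoters were to be shown for called members with CACGTG; none has it, so the promoters printed and the other motifs were chosen after the values were seen. Alternatives were RLE size factors, library size alone, nuclear genes only, nuclear library size alone, no filter, DESeq2 1.42.0, limma 3.58.1 voom with quality weights, the replicate number as a block, a fit of the 2 groups compared, and libraries left out.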

Additional observations from a re-analysis of the deposited data

Results flagged for a closer look

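The genes below differed between KO day 4 and KO day 3, that is, their responses at the 2 times differed by the test of that difference (edgeR, KO day 4 against KO day 3, all genes tested together); both times share their controls. Apart from that of Mxd4, each of these calls was lost when certain single libraries were left out. Mxd4, an antagonist of MYC, was higher at KO day 4 by a log2 fold change of 1.69 (edgeR adjusted p = 0.00631), Nol12, a factor of rRNA processing, by 0.84 (edgeR adjusted p = 0.0266) and Riok3, a kinase of 40S maturation, by 0.83 (edgeR adjusted p = 0.0314). Nop10, of the H/ACA snoRNP, was lower, at -0.82 (edgeR adjusted p = 0.0347) and Pdcd11, of the small subunit processome, at -0.73 (edgeR adjusted p = 0.0363).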

How the results depend on the processing

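Scaling decided the direction at KO day 4, where 66.9 to 72.1% of counts were mitochondrial. With library size alone 41 members and 141 other pathway genes were called at KO day 4 against control and 40 and 139 against KO day 3, where 82.5% and 70.9% of all genes were called, and 3 other pathway genes at KO day 3 (3.86% of all genes). With nuclear library size alone, an alternative chosen after seeing the data, 7 members, all lower, and 52 other genes were called at KO day 4. These were 17.1% and 36.4% of them, against 38.0% of all genes. Against KO day 3 it called 5 and 20 (20.4% of all genes). At KO day 3 it called 1 other gene (1.99% of all genes). Reversed with library size alone were Npm1 (-0.16), Polr1a (-0.20) and Polr1b (-0.031) at KO day 3; Ncl (-1.19), Npm1 (-1.57), Fbl (-1.75), Polr1b (-1.50), Rrn3 (-1.33), Ubtf (-1.91), Nhp2 (-1.34), Ddx21 (-1.22), Nol12 (-0.50), Ppan (-0.997), Eif6 (-1.01) and Mxd4 (-0.95) at KO day 4; and Nol12 (-0.71) and Riok3 (-0.69) against KO day 3. With nuclear library size alone Npm1 (-0.014) and Polr1a (-0.038) at KO day 3 and Npm1 (-0.21), Fbl (-0.37), Polr1b (-0.12) and Ubtf (-0.51) at KO day 4 reversed.

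Other settings moved counts of calls. At KO day 3 DESeq2 called 3 members and 9 other genes (6.53% of all genes), limma voom 6 and 14 (10.6%), no filter 1 and 2 (1.35%), the 2 groups alone 3 other genes (2.57%), and the fit without both libraries that stand apart 3 and 7 (4.73%). At KO day 4 members called were 4 with RLE (9.76% against 22.6% of all genes), 1 with no filter (2.44% against 14.4%), 12 with DESeq2 (29.3% against 30.2%), 16 with limma voom (39.0% against 30.5%), 7 with the 2 groups alone (17.1% against 25.2%) and 15 without both libraries (36.6% against 30.1%). Between the KO times limma voom, the 2 groups alone and the fit without both libraries called 0 members, against 12.3%, 6.56% and 10.2% of all genes. DESeq2 called 6 other genes (4.20% against 21.5% of all genes) and the 2 groups alone 1 (0.704% against 6.56%). Ubtf, at 0.00 at KO day 4, was at -0.0033 with nuclear genes only, -0.10 with no filter, -0.15 with limma voom and -0.20 without both libraries, and Polr1a was at 0.025 without both. Leaving out 1 library each gave 0 to 1, 0 to 7 and 0 to 1 members and 0 to 4, 9 to 25 and 0 to 3 other genes at KO day 3, at KO day 4 and between the KO times. In these fits 0.00 to 2.49%, 11.6 to 27.7% and 4.71 to 13.1% of all genes were called. Leaving out 1 library moved Ubtf at KO day 4 from -0.21 to 0.12, at KO day 3 from -0.086 to 0.0026, and Polr1a at KO day 4 from -0.20 to 0.0203. The member count at KO day 4 was 0 without control replicate 2 or 3 or KO day 4 replicate 2. There 11.6%, 12.6% and 16.7% of all genes were called. Without KO day 4 replicate 3 it was 7 (17.1% against 19.4% of all genes). Nop10 lost its call between the KO times without KO day 3 replicate 1 (-0.57, edgeR adjusted p = 0.0781), among others. The cause of these shifts was not tested, beyond the scale itself and the fewer libraries. Whether replicate numbers pair the samples was not settled, since 3 libraries per group are too few for correlations of their deviations to decide it. Between control and KO day 3 the same-number correlations were 0.068, 0.027 and 0.13, and different-number ones ran from -0.087 to 0.012. In the other pairs of groups same-number values ran from -0.054 to 0.028 and different-number ones from -0.084 to 0.085. The replicate block gave 0, 5 and 1 members, 0, 18 and 4 other genes, and -0.0101 for Ubtf at KO day 4. Of all 13405 genes it called 9, 2680 and 1537. The share of members called at KO day 4 (12.2%) was thus below that of all genes. Of these 5 members 4 were higher (Bysl, Ddx21, Ncl and Nhp2) and 1 was lower (Nop10).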
